A study of Mus musculus with 4 samples.

Results

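The nuclear-encoded subunits of oxidative phosphorylation were followed by their transcripts through single cells of the embryonic mouse gonad and the adjoining mesonephros. Members were chosen by symbol alone, as every gene of the deposited count table named as a subunit of respiratory complexes I to V (Nduf followed by a, b, c, s or v and a digit, Sdha to Sdhd, and names that begin with Uqcr, with Cox4 to Cox8 and a letter, or with Atp5). Assembly factors such as Ndufaf1 and Sdhaf1 fall outside it. Cox4i2, the alternative Cox4 isoform, was left out by the same rule. This gave 82 members among 21495 genes, of which 37 belonged to complex I, 4 to complex II, 8 to complex III, 17 to complex IV and 16 to complex V. Of the matched names, Cox7a2l (a factor that joins complexes III and IV) and Atp5s (a coupling factor-like protein) are not themselves subunits of the complexes, and Ndufa4, counted here with its homologue Ndufa4l2 under complex I, is now regarded as a subunit of complex IV. They were kept where their names put them.

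Complexes I to IV of the inner mitochondrial membrane pass electrons from NADH and succinate to oxygen, and complexes I, III and IV pump protons as they do so. Complex V, the ATP synthase, uses the resulting gradient to make ATP. Complex II is encoded wholly in the nucleus and is also an enzyme of the citric acid cycle, whereas the other complexes combine nuclear with mitochondrially encoded subunits. Several complex IV subunits exist as paired isoforms with distinct tissue distributions, the better known being the forms of heart, skeletal muscle and testis.

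The study compared XY gonads that lack the miR-17~92 cluster of microRNAs (XY KO) with XY and XX control gonads around the time of sex determination. There were 4 samples and 1 sample per group, named by sex, genotype and embryonic day: XY control (E11.5), KO E11.5 and KO E11.75 (both XY KO) and XX control (E11.5), all labelled C57BL/6 x 129S4/SvJae. Each sample was a pool of gonads with mesonephros, fixed in methanol. KO embryos came by tetraploid complementation from a G4 XY embryonic stem cell line in which CRISPR/Cas9 had removed both copies of the cluster, XY controls came from the unedited parental line, and XX controls came from natural matings. The KO embryos therefore derived from edited cell clones, and the XX sample differed from the XY samples in how its embryos were made as well as in sex. No replicate exists for any group, so no test was possible. Differences below carry intervals for counting error only and say nothing of variation between embryos.

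The 4 samples held 23527, 17057, 8492 and 3669 cells in the order given, with 105192238, 90233642, 37841392 and 67952558 unique molecular identifiers (UMIs, one per captured transcript). The paper's methods give 17057 cells to the E11.75 mutants and 8492 to the E11.5 mutants. That is the reverse of the deposited cell labels, which were followed here. Median UMIs per cell lay between 3893 and 4763 in the XY samples and were 15509 in the XX control, which the authors filtered in another way. Of 40 cell type markers, 32 were higher in their own type than in all other cells in each of the 4 samples. The exceptions were the 4 Sertoli markers, which failed only in the XX control with its 2 Sertoli cells, together with Cyp17a1, Msln, Nr2f1 and Tnfrsf11b. Cyp17a1 and Msln were higher in 1 sample each, and Nr2f1 (interstitial progenitors) and Tnfrsf11b (supporting-like cells) in 0. Mesonephric epithelium had no marker in this check. Of 52400 distinct cell barcodes, 285 occurred in more than 1 sample. One sample stood apart in the genes described here. In pre-supporting cells, the 13 mitochondrially encoded subunits and Gm42418, a gene that overlaps ribosomal RNA, were both higher in KO E11.75 than in any other sample. They stood at 61778 and 10854 CPM (UMIs of a gene scaled to the usual common total for the same cells). Pre-supporting cells of the other samples held 34440 to 47426 CPM of the subunits and 3887 to 5295 CPM of Gm42418. KO E11.75 had 1 sequencing library run and was the only sample of its stage, so genotype, stage and library cannot be told apart in it. The deleted cluster itself is not counted by this assay. Its host transcript Mir17hg was at 9.39 CPM in pre-supporting cells of the XY control, 99.0 in KO E11.5, 108 in KO E11.75 and, for the XX control, 7.96. Where the counted tags lie relative to the deletion was not examined, so these values are no check of it.

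Transcripts of the 82 members made up 2.96% of the UMIs of the median pre-supporting cell in the XY control (quartiles 2.62% and 3.27%). The pre-supporting cell is the bipotential precursor of Sertoli and granulosa cells. The same share was 2.73% in KO E11.5, 2.10% in KO E11.75, and XX control cells had 3.20%. Complexes I, IV and V held most of these transcripts, with summed levels in the XY control of 9543 CPM for complex I, 8434 CPM for complex IV and 8273 CPM for complex V. Complex III stood at 2863 CPM and complex II at 469 CPM. Because the method counts 1 tag per transcript at its 3′ end, levels of different genes were compared without division by length.

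Among cell types the summed level was highest in germ cells in all 4 samples. The XY control had 38531 CPM there (exact Poisson 95% interval 38386 to 38677), 37049 in KO E11.5, 33267 in KO E11.75 and, for the XX control, 40468. It was lowest in the mesonephric mesenchyme, at 25351 (25304 to 25399), 25063, 17122 and 27587 CPM. Adrenal cells came second in each of the 3 samples with at least 50 of them, at 33328, 32802 and 33256 CPM. The other types of the XY control lay between, from 25975 CPM in interstitial progenitors to 29582 CPM in pre-supporting cells. There the intervals of pre-supporting and immune cells met, as did those of immune and supporting-like cells and those of neighbours in the order Sertoli cells, coelomic epithelium, adrenosympathetic cells and endothelial cells. Cell types had been defined by the authors from these same cells, so differences between types are given as a description.

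**Figure D1:**
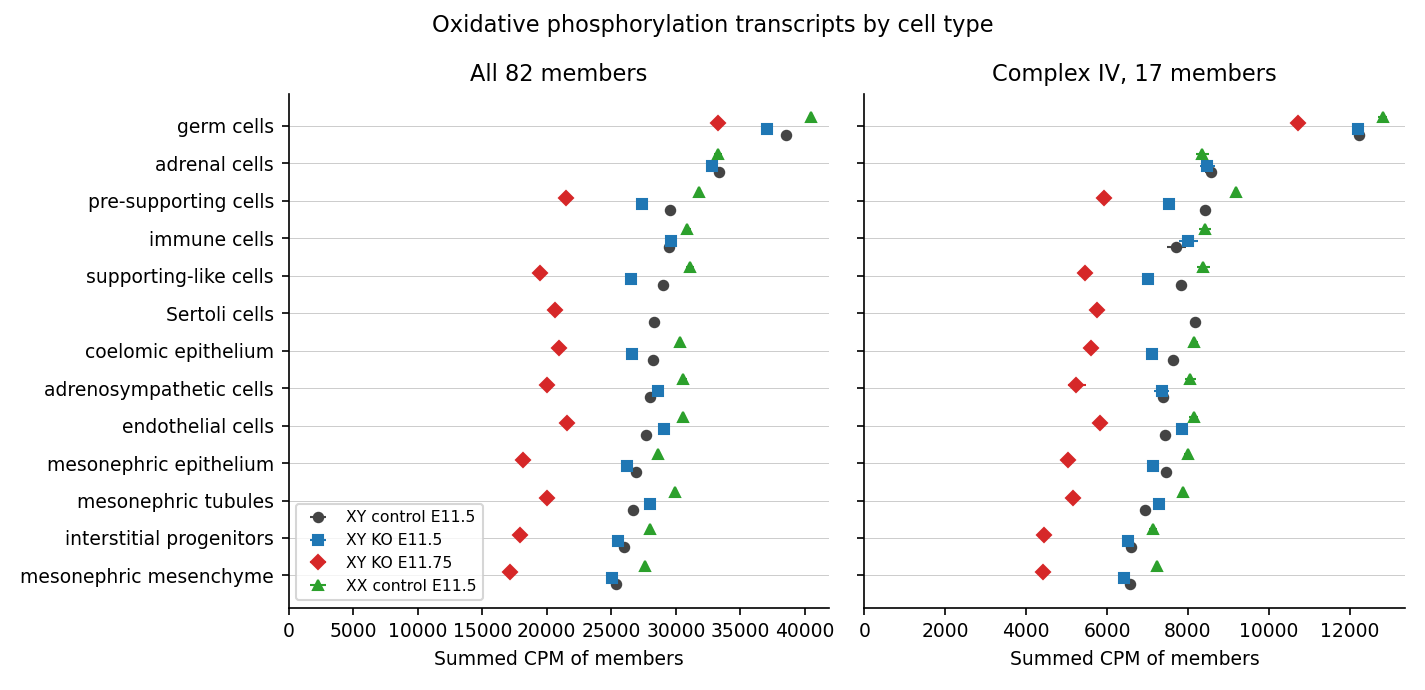
Summed CPM (x axis) of all 82 members on the left and of the 17 complex IV members on the right, for each cell type (y axis) and sample, where at least 50 cells were present; bars are 95% exact Poisson intervals and are mostly smaller than the symbols. Germ cells are highest in all 4 samples, and KO E11.75 is lowest in every type shown for it.

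The excess in germ cells was unequal among the complexes. Complex IV was 1.45-fold the level of pre-supporting cells in the XY control, 1.62-fold in KO E11.5, 1.81-fold in KO E11.75 and 1.40-fold in the XX control. Complex V was 1.33- to 1.65-fold and complex I was 1.15-fold in the XY control. Complex II did not share the excess and stood at 0.857- to 0.971-fold. Relative to the median gene, which germ cells and pre-supporting cells share by construction at a log2 ratio of 0, the median member was higher in germ cells by 0.47, 0.43, 0.67 and 0.48 in the order of samples above. Of the members with at least 200 UMIs over both types, 64 of 76, 62 of 76, 68 of 75 and 66 of 76 lay above 0. No share of all genes is given beside these numbers. Cytosolic ribosomal proteins were also higher in germ cells, at 257284 CPM against 178936 CPM in pre-supporting cells of the XY control. They were higher in germ cells of the other samples too. Whether the excess is particular to the members was not tested.

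Some of the members' excess in germ cells came from single isoforms. Atp5g1 (chromosome 11, 96068852 to 96075670, minus strand, mm10), which encodes the membrane ring subunit c of ATP synthase, was at 1576 CPM in germ cells and 490 CPM in pre-supporting cells of the XY control. Its germ cell level was 1349 in KO E11.5, 1176 in KO E11.75 and, for the XX control, 1569 CPM, above every other type in each sample. Atp5g2 encodes the same mature subunit and was at 1245 against 618 CPM in the XY control. Atp5g3, the third such gene, differed less, at 453 against 471 CPM in the XY control, and its germ cell ratio relative to the median gene was 0.16 there, 0.17 in KO E11.5, 0.42 in KO E11.75 and, for the XX control, 0.23. Cox7a2, the widespread isoform of complex IV subunit 7a, was at 1228 CPM in germ cells and 460 CPM in pre-supporting cells. Cox7a1, the muscle and heart form of the same subunit, was at 86.0 CPM in germ cells of the XY control, 92.9 in KO E11.5, 91.1 in KO E11.75 and, for the XX control, 76.7. In the XY control no other type exceeded 18.3 CPM, which adrenal cells reached.

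Further isoforms known from testis were found in germ cells, although at low levels. Cox6b2, a testis isoform of subunit 6b, was at 112, 164, 183 and 80.0 CPM in germ cells of the 4 samples. In the other types of the XY control it ranged from 14.2 CPM in endothelial cells to 52.9 CPM in pre-supporting cells, whereas Cox7a1, counted in each of them too, ranged from 1.09 to 18.3 CPM. Cox7b2 was at 17.3, 13.7, 10.3 and 21.3 CPM in germ cells and at most 2.40 CPM in any other type and sample. Cox8c, a testis form of subunit 8, was counted 37, 7, 9 and 19 times in germ cells, or 5.30, 3.42, 5.78 and 5.26 CPM. Their widespread partners were much more abundant in the same cells of the XY control, with Cox6b1 at 566 CPM, Cox7b at 589 CPM and Cox8a at 1060 CPM. Cox8b, a muscle form, was counted 17 times in all cells of the series.

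Outside germ cells the sharpest restriction was that of Ndufa4l2 (chromosome 10, 127514967 to 127517154, plus strand), a homologue of the respiratory chain subunit Ndufa4 that low oxygen is known to induce. It stood at 333 CPM in adrenosympathetic cells of the XY control, 341 in KO E11.5, 211 in KO E11.75 and, for the XX control, 289. Adrenosympathetic cells are neural crest derivatives. In the XY control all other types were at or below 3.72 CPM. Ndufa4 itself varied little, from 717 to 926 CPM over the types of the XY control. Cox6a2, the muscle form of subunit 6a, was found in immune cells, with 24 UMIs (41.3 CPM) in the XY control and 10 UMIs (6.25 CPM) in the XX control. It was counted 0 times in the 73 immune cells of KO E11.5. The immune cells of the samples were not alike in their markers. In the XY control Ptprc, Csf1r and C1qa were at 89.4, 84.3 and 67.1 CPM. The other samples had 170 to 234, 311 to 572 and 536 to 917 CPM.

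Most members were not restricted. Of 78 members with at least 200 UMIs over the types of the XY control, 57 had a highest level under 2 times their lowest, the median of this ratio was 1.68 and 3 members reached 5 or more. The smallest ratio was that of Ndufa2, a small accessory subunit of complex I, at 1.28. Germ cells held the highest level of 35 members and adrenal cells of 29. Mesonephric mesenchyme held the lowest level of 18. These numbers are not set beside those of other genes, so whether they are particular to the members was not tested.

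**Figure D2:**
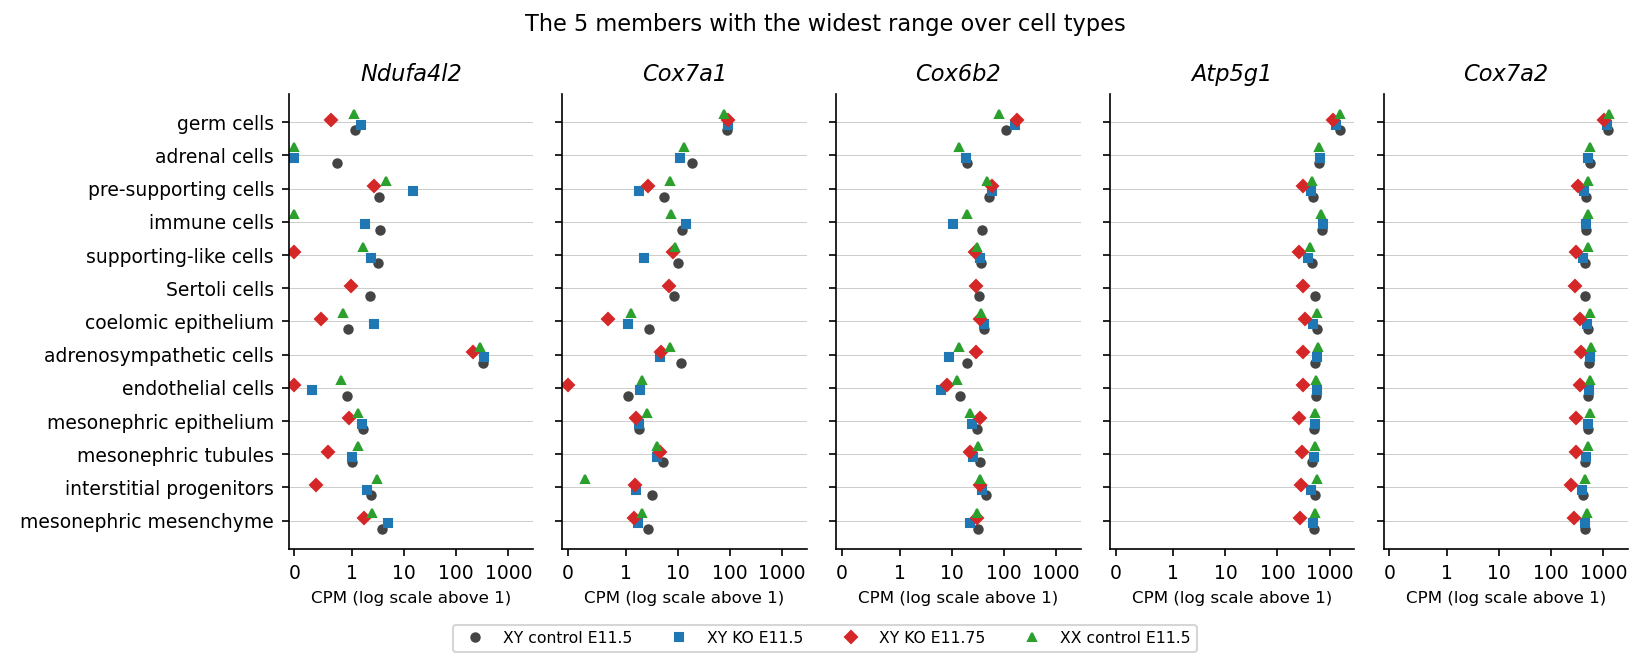
CPM (x axis, logarithmic above 1 and linear below) of the 5 members with the widest range over cell types (y axis), one panel per gene and one symbol per sample, for types with at least 50 cells. Ndufa4l2 stands at 211 to 341 CPM in adrenosympathetic cells, and the other 4 genes are at their highest in germ cells in every sample.

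The 4 subunits of complex II were at similar levels in pre-supporting cells of the XY control, with Sdha (the flavoprotein that oxidises succinate) at 124 CPM, Sdhb (the iron-sulphur subunit) at 113, Sdhc at 92.1 and Sdhd at 140 CPM, the last pair anchoring the complex in the membrane. They did not vary together over types. In adrenal cells Sdhb was at 260 CPM, Sdha at 174 CPM, Sdhd at 158 CPM and Sdhc at 95.2 CPM. In germ cells Sdhc was at 65.9 CPM and Sdhd at 97.0 CPM, both below pre-supporting cells, while Sdhb was at 140 CPM. The membrane anchors were below pre-supporting cells in germ cells of all 4 samples.

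Next, pre-supporting cells of each sample were compared with those of the XY control. Ratios below are log2 ratios of CPM centred on the median of all genes that reached 200 UMIs in the pair, and a gene was counted as higher or lower when it passed 1.3-fold. This left 75 members. The remaining 7 (Ndufa4l2, Cox6a2, Cox7a1, Cox7b2, Cox8b, Cox8c and Atp5s) are described by their counts. The 3 comparisons share the XY control, so their values are set side by side only. In bulk sums of this kind, fewer transcripts per cell cannot be told apart from a shift in the make-up of the cells that carry the name.

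In KO E11.5 the members as a group stood where the median gene did. Their median centred ratio was 0.0017, with complexes I to V at 0.0065, −0.00039, −0.12, 0.0032 and −0.0074. Of the 75 members 0 were higher and 1 was lower, while 8.93% of all 7910 genes were higher and 10.1% were lower. With total counts in place of centring 3 members were lower, a scaling for which no share of all genes is given. The median member of the mitochondrially encoded list was at 0.18 and that of cytosolic ribosomal proteins at 0.38. Sox9, the Sertoli factor, was at 200 CPM in pre-supporting cells of the XY control, 20.1 in KO E11.5, 88.0 in KO E11.75 and, for the XX control, 9.29. Its part in the members' values was not tested. In the XY control the median ratio of Sertoli over pre-supporting cells was −0.08 over members.

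The 1 member below the limit was Cox6c (chromosome 15, 35925886 to 35938246, minus strand), a small nuclear subunit of complex IV and the most abundant member in pre-supporting cells of both controls, though not over all their cells. Its level in pre-supporting cells was 1684 CPM in the XY control, 1154 in KO E11.5, 1039 in KO E11.75 and, for the XX control, 1906. Its centred ratio in KO E11.5 was −0.46 (95% exact binomial interval −0.50 to −0.41). The runs of the XY control gave 1592 and 1788 CPM and those of KO E11.5 gave 1038 and 1259 CPM. The call depended on the runs: with run 1 of the XY control alone the ratio of Cox6c was −0.37 and with run 2 of KO E11.5 alone it was −0.33, both within 1.3-fold and with 0 members lower. With run 2 of the XY control alone it was −0.56 (2 members lower) and with run 1 of KO E11.5 alone −0.61 (4 members lower). No share of all genes is given beside these numbers from single runs. Over the 12 types compared, pre-supporting cells had the lowest ratio and the median was −0.10.

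Next lowest in KO E11.5 were Cox6a1 at −0.31 (−0.40 to −0.23), Ndufs1, which carries iron-sulphur clusters of complex I, at −0.30 (−0.50 to −0.11), Atp5g3 at −0.23 and Uqcrc1, a large subunit of complex III, at −0.22. Cox6a1 stood at 350 CPM in XY control cells and 264 CPM in KO E11.5. Atp5g3 was below 0 in all 12 types in which it was tested. It was the only 1 of 59 members tested in every type to be so (1.69%), beside 2.30% of 784 genes. In the other direction, 4 members (6.78%) were above 0 in all 12, beside 6.89% of genes. Highest were Cox7a2l at 0.28 (0.20 to 0.36), Cox6b2 at 0.24, Atp5g2 at 0.23 (0.17 to 0.29), Ndufa5 at 0.22 and Ndufa10 at 0.18. The paired genes for subunit c of ATP synthase thus stood on opposite sides of the median gene, with Atp5g2 at 618 CPM in the XY control and 680 in KO E11.5 and Atp5g3 at 471 and 377 CPM. None of these passed 1.3-fold. Other central or abundant subunits lay closer to 0, with Ndufv1 at 0.03, Uqcrfs1 at 0.06, Cox4i1 at 0.06, Atp5a1 at 0.02 and Atp5b at −0.07.

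Low-count members were read from their UMIs. Ndufa4l2 was counted 26 times in pre-supporting cells of the XY control, 88 in KO E11.5, 12 in KO E11.75 and, for the XX control, 31, or 3.30, 14.6, 2.61 and 4.57 CPM. KO E11.5 was above the other 3 samples, against a Poisson interval of 2.15 to 4.83 CPM in the XY control, and its runs were alike at 14.3 and 14.9 CPM. Cox4i2, which the rule leaves out and which low oxygen is also known to induce, was at 5.45, 24.9, 6.75 and 3.54 CPM and was looked up after these values were seen. A part of low oxygen in these values was not tested. Cox7a1 was counted 43, 11, 12 and 48 times, or 5.45, 1.82, 2.61 and 7.08 CPM, with an interval in KO E11.5 of 0.911 to 3.26 CPM and in the XY control of 3.95 to 7.35 CPM. Cox6a2 and Cox8c were counted 0 times in pre-supporting cells of every sample, which allows up to 0.381 CPM in the XY control and 0.654 CPM in KO E11.75 (3 counts).

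**Figure D3:**
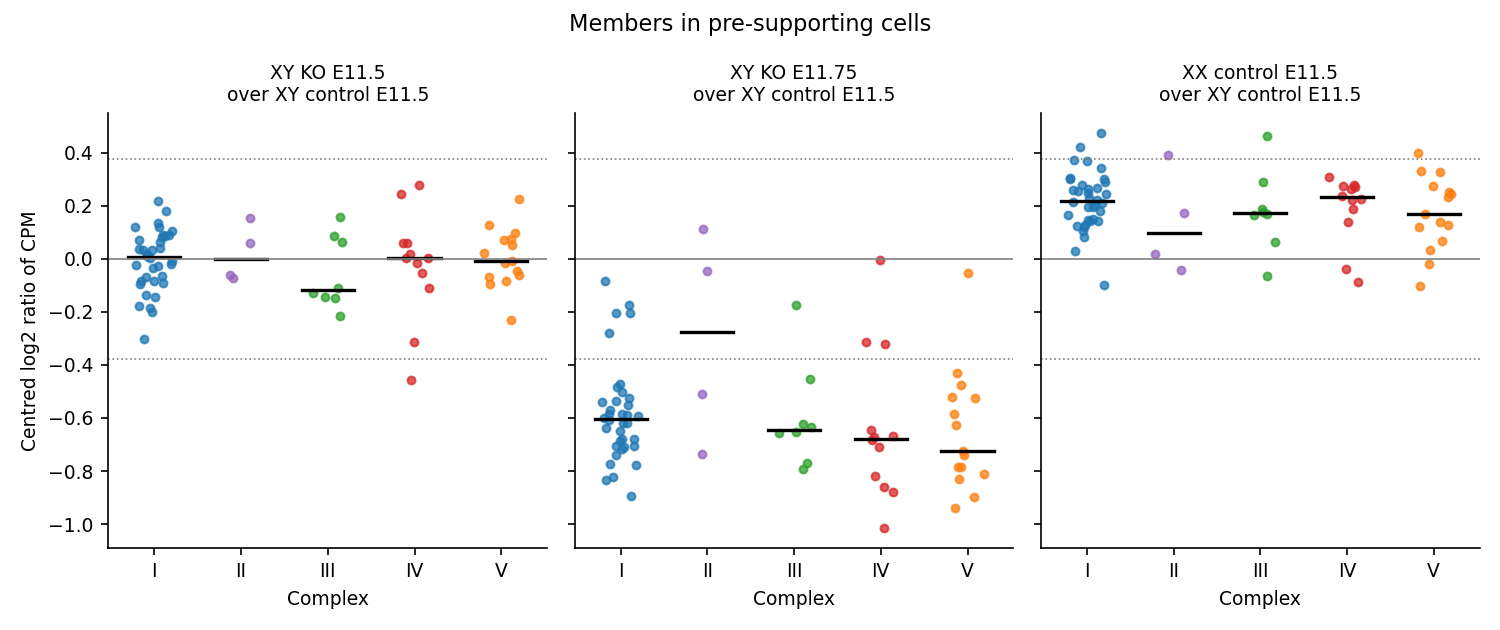
Centred log2 ratio of CPM (y axis) of the 75 members that reached 200 UMIs in the pair of samples, in pre-supporting cells, by complex (x axis), for KO E11.5, KO E11.75 and the XX control over the XY control; points are genes, black bars are medians and dotted lines mark 1.3-fold. In KO E11.75 the medians lie between −0.72 and −0.28, in the other 2 panels between −0.12 and 0.23.

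KO E11.75 differed. The median member was at −0.63 there, 63 of 75 were lower and 0 were higher, while 24.2% of all 7931 genes were lower and 18.6% were higher. The count depended on the scaling, and the shares of all genes above hold for centring on the median gene only. Total counts without centring gave a median of −0.471 with 51 members lower, and centring on genes with a 3′ UTR of at most 500 bases, an alternative whose counts were added after seeing the data, gave −0.255 with 17 lower and 1 higher. Summed over members, pre-supporting cells held 21521 CPM against 29582 CPM in the XY control. Complex IV went from 8434 to 5928 CPM (centred log2 ratio −0.67, interval −0.69 to −0.65), complex V from 8273 to 5959 CPM (−0.64) and complex I from 9543 to 7107 CPM (−0.59). Complex III went from 2863 to 2095 CPM (−0.61). Complex II was the least displaced, at 469 and 432 CPM (−0.28, interval −0.36 to −0.20).

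The lowest members belonged to complexes I, IV and V. Cox5a (chromosome 9, 57521274 to 57532426, plus strand), a nuclear subunit of complex IV, stood at 505 CPM in XY control cells, 440 in KO E11.5, 280 in KO E11.75 and, for the XX control, 553, a centred ratio of −1.02 (−1.11 to −0.92) in KO E11.75. Over the 11 types compared it ran from −1.32 in mesonephric epithelium to −0.61 in germ cells. Atp5f1, part of the peripheral stalk of ATP synthase, was at −0.94, Atp5d, of its central stalk, at −0.90, Ndufb10 at −0.90 and Cox7b at −0.88. Uqcrfs1, the Rieske iron-sulphur protein of complex III, was at −0.77, Ndufv1, which binds NADH in complex I, at −0.71 and Cox4i1, a nuclear subunit of complex IV, at −0.68. Atp5b and Atp5a1, the catalytic and alternate subunits of the ATP synthase head, were displaced less, at −0.48 and −0.43.

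The members that kept close to the median gene in KO E11.75 included enzymatic subunits. Sdhc was at 0.11 (−0.06 to 0.28), with 92.1, 82.4, 111 and 87.3 CPM in the order of samples. Sdha was at −0.04 (−0.19 to 0.10), with 124, 112, 135 and 113 CPM. Within complex II they parted from Sdhb at −0.74 (−0.92 to −0.56) and Sdhd at −0.51 (−0.67 to −0.36). Cox6b2 was at −0.0036 (−0.23 to 0.22), Atp5k, the small subunit e of ATP synthase, at −0.05 (−0.14 to 0.03) and Ndufs1 at −0.08 (−0.28 to 0.11). Atp5k differed by −0.79 between the runs of KO E11.5, as described below, and KO E11.75 had 1 run. Over the 11 types with at least 50 cells, the ratio of Sdha lay between −0.18 and 0.29 and that of Sdhc between −0.19 and 0.36. That of Sdhb was below 0 in all 11, with a median of −0.60.

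The low level of members in KO E11.75 was seen in all 11 types, with medians from −0.74 in mesonephric mesenchyme to −0.38 in germ cells. Of 73 members tested in every type, 64 were below 0 in all 11, or 87.7%, and 0 were above 0 in all. Among all 2200 genes tested in every type, 40.3% were below 0 in all 11 and 17.5% were above 0 in all. In KO E11.5 the medians over 12 types ran from −0.06 in immune cells to 0.14 in mesonephric tubules.

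Several other gene lists moved in the same sample, in which 24.2% of all 7931 genes were lower and 18.6% were higher. In pre-supporting cells of KO E11.75, 31 of 36 proteasome subunits were lower and the list's median was −0.69. Of 77 mitochondrial ribosomal proteins 58 were lower, with a median of −0.58, and of 93 cytosolic ribosomal proteins 49 were lower and 1 was higher, with a median of −0.40. Assembly factors of the respiratory complexes had 20 of 37 lower and a median of −0.40. The citric acid cycle differed less, with 3 of 16 lower, no larger a share than that of all genes, and a median of −0.13. Its lower genes were Suclg1 at −0.89, Mdh2 at −0.70 and Fh1 at −0.65, whereas citrate synthase (Cs) was at 0.19. Of 9 carriers and regulators 3 were lower and 2 were higher, with a median of −0.27. The higher ones were Pprc1, a coactivator related to Ppargc1a, at 0.67 and Tfb2m, a mitochondrial transcription factor, at 0.49. The electron carrier cytochrome c (Cycs) was at 141, 107, 80.6 and 128 CPM, a ratio of −0.97 in KO E11.75.

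The mitochondrially encoded subunits went the other way. Of 13, 9 were higher and 0 were lower in KO E11.75, with a median of 0.51 and a range from 0.11 for mt-Co3 to 0.87 for mt-Atp8. Summed nuclear-encoded over summed mitochondrially encoded transcripts thus stood at 0.653 in the XY control, 0.577 in KO E11.5, 0.348 in KO E11.75 and, for the XX control, 0.923 in pre-supporting cells. In germ cells the same ratio was 0.971, 0.844, 0.579 and 1.29. The order of samples was the same in both of these types, but in endothelial, adrenal and adrenosympathetic cells KO E11.5 was above the XY control, at 0.790 against 0.729 in endothelial cells. The part of RNA quality in this ratio was not tested.

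**Figure D4:**
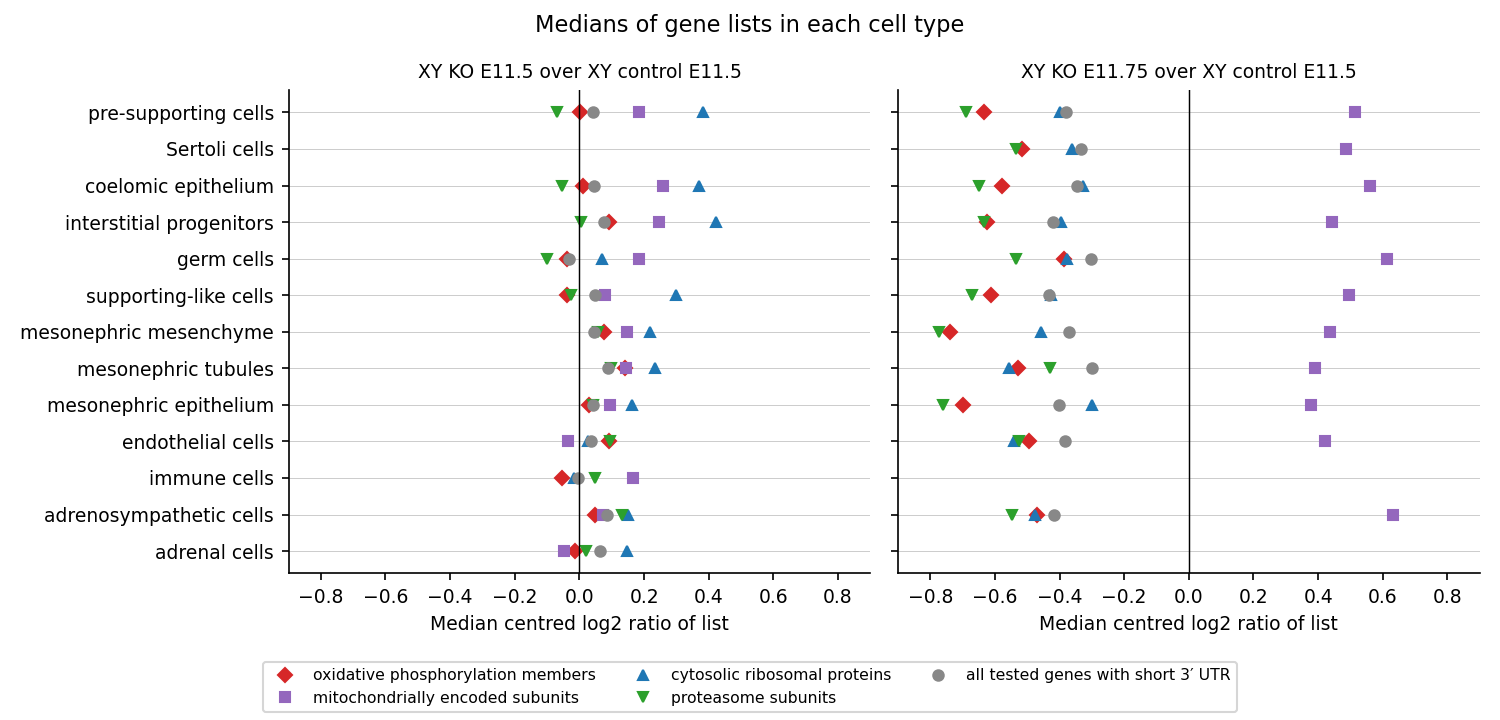
Median centred log2 ratio (x axis) of 5 gene groups in each cell type (y axis) for KO E11.5 on the left and KO E11.75 on the right, both over the XY control, where both samples had at least 50 cells; short 3′ UTR means at most 500 bases. On the right the oxidative phosphorylation members lie between −0.74 and −0.38 and the mitochondrially encoded subunits are above 0 in every type.

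The members have short 3′ UTRs, and over all genes, though not among the members, 3′ UTR length moved with the ratio in KO E11.75. The longest annotated 3′ UTR had a median of 264 bases over 81 members, against 1217 bases over 17348 genes. In pre-supporting cells of KO E11.75 all 1514 tested genes with a 3′ UTR of at most 500 bases had a median ratio of −0.38 and longer ones 0.07, and Spearman's rho between length and ratio over 7767 genes was 0.42. These genes share libraries and depth, and the value is a description. Among the 74 members with a known length rho was 0.06, and the 55 shorter and 19 longer members had medians of −0.63 and −0.63. Centred on the short genes, the members' median was −0.255. Among genes of all lengths in KO E11.5 rho was −0.13.

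KO E11.75 was also set against KO E11.5, which has the same genotype. The median member was at −0.62, with 62 of 75 lower and 0 higher, beside 26.2% of all 7302 genes lower and 21.1% higher. With total counts in place of centring the median was −0.37, with 36 lower and 2 higher, and centred on short 3′ UTR genes it was −0.16, with 9 lower and 5 higher. The shares of all genes above do not apply to these scalings. Cox6c, lower in both KO samples than in the XY control, was at −0.40 here. Atp5f1 at −1.01 was the lowest, and Ndufs1 at 0.22 and Sdhc at 0.18 were the highest. Cytosolic ribosomal proteins had a median of −0.80 in this comparison.

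In the XX control the members stood slightly above the median gene relative to the XY control. Their median was 0.21, with 5 of 75 higher and 0 lower, beside 7.42% of all 7992 genes higher and 916 genes (11.46%) lower. The 5 members higher are thus no larger a share than that of all genes, and the share of members lower was smaller than that of genes. With total counts the median was 0.113 with 1 member higher, centred on short 3′ UTR genes it was 0.0894 with 0 higher, and with run 2 of the XY control alone 0.139. With Sertoli cells merged 10 members were higher, with a minimum of 500 UMIs 3, and at 1.5-fold 0. No share of all genes is given for these alternatives, so the comparison of shares above holds for the reported version only. The 5 were Ndufs8 at 0.48 (0.33 to 0.62), Uqcrfs1 at 0.46, Ndufa6 at 0.42, Atp5c1 at 0.40 and Sdhb at 0.39, named after their values were seen. Uqcrfs1 stood at 178 CPM in XY control cells, 175 in KO E11.5, 117 in KO E11.75 and, for the XX control, 230. Of 73 members tested in all 12 types compared, 27 were above 0 in every type, or 37.0%, against 20.0% of 1404 genes. Cytosolic ribosomal proteins had a median of 0.29, with 27 of 94 higher and 0 lower. The XX cells had been filtered differently and held more UMIs each, and the part of either in these values was not tested.

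Runs of the same sample gave the size of differences between libraries. In pre-supporting cells of the XY control, 0 of 75 members passed 1.3-fold between run 1 and run 2 in either direction (1.08% of 6103 genes were higher and 0.852% lower), and the SD over members was 0.09. In KO E11.5 the SD was 0.19, and 4 members were lower in run 1 with 0 higher, beside 2.51% of 4894 genes lower and 1.35% higher. Atp5k (chromosome 5, 108433244 to 108434448, minus strand) was at 265 CPM in run 1 and 452 CPM in run 2, a log2 ratio of −0.79. In the XY control its runs were at 386 and 412 CPM. The other 3 were Ndufa3 at −0.53, Uqcr11 at −0.52 and Ndufa1 at −0.39. For Atp5k and Ndufa3 the difference was also seen in other types. Over 11 types with at least 50 cells in both runs, Atp5k lay between −0.97 and −0.59, and over the 10 of them where Ndufa3 had enough UMIs, it lay between −0.73 and −0.41. Uqcr11 lay between −0.52 and −0.19 over the 11 types, and Ndufa1 was not followed over types. Over 13 types of the XY control Atp5k lay between −0.37 and 0.17. The value of −0.04 that Atp5k had in KO E11.5 over the XY control was therefore an average of 2 unlike runs.

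**Figure D5:**
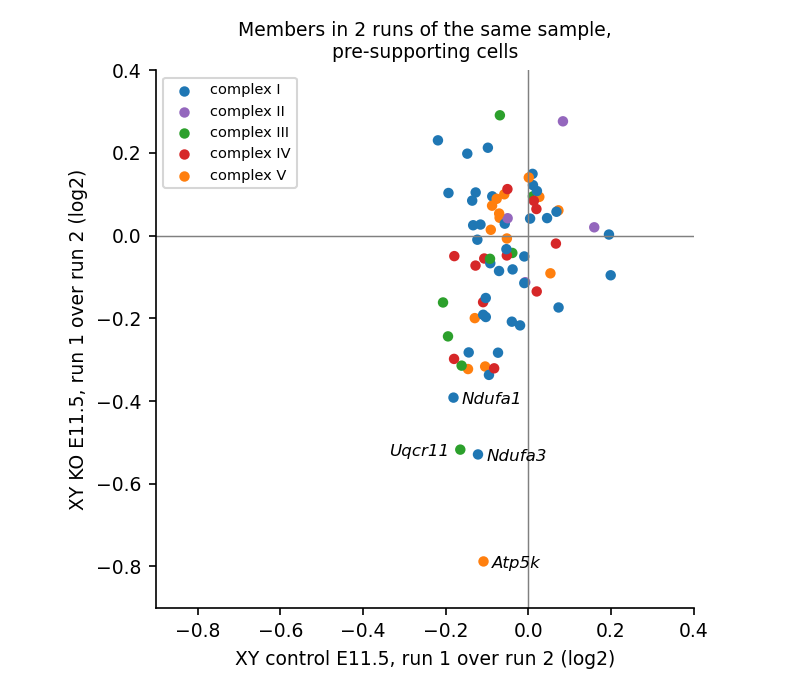
Centred log2 ratio of run 1 over run 2 for each member in pre-supporting cells, in the XY control (x axis) and in KO E11.5 (y axis), coloured by complex. Atp5k, Uqcr11, Ndufa3 and Ndufa1 lie between −0.79 and −0.39 in KO E11.5, whereas no member passes −0.22 in the XY control.

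The deleted cluster encodes 6 microRNAs with 4 different seeds, and these are shown because the seed (bases 2 to 8, in capitals) is the part that pairs with a target. Sequences are from RefSeq (GRCm38.p6), where the genes lie on chromosome 14, plus strand, between 115043684 and 115044496.
miR-17-5p: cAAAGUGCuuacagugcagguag
miR-20a-5p: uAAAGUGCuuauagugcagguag
miR-18a-5p: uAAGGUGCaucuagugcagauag
miR-19a-3p: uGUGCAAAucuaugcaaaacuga
miR-19b-3p: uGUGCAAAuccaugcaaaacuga
miR-92a-3p: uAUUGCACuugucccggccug
The members carried few matches to these seeds. In the longest annotated 3′ UTR, 0 of 81 members held an 8mer (the complement of bases 2 to 8 followed by A), against 12.7% of 17348 genes, and 8 of 81 held the 7 bases with or without the A, or 9.88%, against 32.4%. Among 3′ UTRs of at most 500 bases the 7 bases were found in 5.00% of 60 members and 5.93% of 4116 other genes, and among longer ones in 23.8% of 21 members and 40.8% of 13151 other genes, whose median lengths differ, at 856 and 1688 bases. The 8mer was found in 0 of the 60 shorter members and 1.53% of the shorter other genes. Among the longer ones it was found in 0 of 21 members and 16.3% of other genes.

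The 8 matches follow, with the 7 bases in capitals and 10 flanking bases on each side, 1 for each of the 8 members that had one. A match is a description and not a site in use.
Sdhd, miR-17 seed, chr9:50597068-50597074, minus strand: cctgggtgcaGCACTTTgattgtgtgc
Ndufa10, miR-17 seed, chr1:92439403-92439409, minus strand: acccacccctGCACTTTgggtctctca
Ndufb2, miR-17 seed, chr6:39603296-39603302, plus strand: caattacataGCACTTTttggggggtt
Cox7b, miR-18 seed, chrX:106022091-106022097, plus strand: gatcaggaggGCACCTTtatagtaagc
Atp5g1, miR-18 seed, chr11:96070498-96070504, minus strand: tatgacgctgGCACCTTtgacaggtca
Ndufb4, miR-18 seed, chr16:37647351-37647357, minus strand: ctcagtgtctGCACCTTtcctgcctga
Ndufa5, miR-92 seed, chr6:24518684-24518690, minus strand: ggaattaaatGTGCAATtaaatgctct
Uqcrfs1, miR-92 seed, chr13:30540495-30540501, minus strand: gacttgaaagGTGCAATgtctttgata
In pre-supporting cells of KO E11.5 the 3 genes with a miR-17 match were at 0.06 (Sdhd), 0.18 (Ndufa10) and −0.09 (Ndufb2). Those with a miR-18 match were at 0.02 (Cox7b), −0.08 (Atp5g1) and −0.03 (Ndufb4), and those with a miR-92 match at 0.22 (Ndufa5) and 0.06 (Uqcrfs1). All 8 lay within 1.3-fold, as did all but 1 of the 75 members tested. Of all 7910 genes, 8.93% were higher and 10.1% were lower.

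Promoters were searched because genes of the respiratory chain are known to share the factors NRF1, GABP, YY1 and the estrogen-related receptors, and because most members were displaced together in KO E11.75. The window ran from 250 bases before to 50 bases after the start, and 65 of 82 members matched the RefSeq promoter table by symbol. The NRF1 core GCATGCGC was found on either strand in 10 of 65 members, or 15.4%, in 7.02% of 6193 other genes tested in pre-supporting cells and in 3.05% of all 27025 symbols. The ETS-type letters CCGGAAG, as GABP binds, were found in 24.6%, 23.7% and 9.93%. AAGATGG, of the YY1 type, was found in 15.4%, 9.48% and 7.28%. The letters AAGGTCA, as the estrogen-related receptors bind, was found in 12.3%, 3.46% and 5.38%. At least 1 of the 4 was present in 34 of 65 members (52.3%) and in 37.9% of the other tested genes. The NRF1 core nearly reads the same on both strands, so that in Cox6a1 and Atp5k its matches on the 2 strands overlap, giving a run of 10 capitals. Matches to different motifs did not overlap in the promoters printed.

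The promoters of 4 named members with 2 or more of these motifs are shown, on the strand of the gene and with motif letters of either strand in capitals (GRCm38.p6). Sdhb and Cox6a1 hold the NRF1 core and the ETS letters, Sdhd the ETS letters and AAGGTCA, and Atp5k all 3.
Sdhb, chr4:140961021-140961320, plus strand: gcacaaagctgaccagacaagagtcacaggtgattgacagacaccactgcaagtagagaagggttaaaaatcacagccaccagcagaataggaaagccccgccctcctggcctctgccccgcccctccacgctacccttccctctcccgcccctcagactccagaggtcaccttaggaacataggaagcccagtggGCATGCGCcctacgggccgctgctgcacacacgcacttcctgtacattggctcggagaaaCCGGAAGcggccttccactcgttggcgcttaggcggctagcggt
Sdhd, chr9:50603800-50604099, minus strand: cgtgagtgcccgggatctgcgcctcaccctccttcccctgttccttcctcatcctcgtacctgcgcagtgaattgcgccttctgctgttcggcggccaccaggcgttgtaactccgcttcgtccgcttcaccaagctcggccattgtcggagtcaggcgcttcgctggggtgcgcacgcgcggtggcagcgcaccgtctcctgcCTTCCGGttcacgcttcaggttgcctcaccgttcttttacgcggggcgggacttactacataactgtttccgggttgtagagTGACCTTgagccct
Cox6a1, chr5:115348909-115349208, minus strand: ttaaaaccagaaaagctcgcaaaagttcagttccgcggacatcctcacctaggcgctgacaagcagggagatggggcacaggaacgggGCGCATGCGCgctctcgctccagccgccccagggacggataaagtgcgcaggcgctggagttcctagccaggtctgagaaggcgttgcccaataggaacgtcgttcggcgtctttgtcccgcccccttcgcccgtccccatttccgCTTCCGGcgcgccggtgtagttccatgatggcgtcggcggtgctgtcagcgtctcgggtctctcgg
Atp5k, chr5:108434350-108434649, minus strand: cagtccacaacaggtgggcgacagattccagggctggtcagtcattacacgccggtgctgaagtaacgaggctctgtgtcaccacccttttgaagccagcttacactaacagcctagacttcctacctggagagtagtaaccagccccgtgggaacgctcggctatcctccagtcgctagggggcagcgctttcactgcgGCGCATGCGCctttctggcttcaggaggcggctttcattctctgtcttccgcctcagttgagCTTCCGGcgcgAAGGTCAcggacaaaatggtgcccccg
In KO E11.75 these genes stood at −0.74 (Sdhb), −0.51 (Sdhd), −0.65 (Cox6a1) and −0.05 (Atp5k). Atp5k also differed between runs of KO E11.5, as given above. Of the factors themselves, measured in the same cells, Gabpa was at 0.25, Nrf1 at 0.03 and Yy1 at −0.58 in KO E11.75, with 47.3, 39.1, 63.2 and 40.8 CPM of Gabpa, 32.3, 27.7, 36.8 and 25.5 CPM of Nrf1 and 239, 196, 180 and 265 CPM of Yy1 in the order of samples. Esrra and Ppargc1a, a receptor and a coactivator of the pathway, were at or below 11.1 and 2.92 CPM. Tfam, which packages and transcribes mitochondrial DNA, was at 72.9, 65.7, 67.5 and 63.9 CPM.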

How the data were processed

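Gonads with mesonephros were profiled by 10x Genomics 3′ single-cell RNA sequencing (v3.1). The authors aligned reads to mm10 with Cell Ranger 6.1.1, merged the technical runs of a sample, filtered cells by mitochondrial content, beta globin, UMIs and genes in XY samples and by cluster in the XX sample, removed doublets with DoubletFinder, integrated the samples in Seurat and named the clusters. The deposited table holds raw UMI counts for 52745 cells and 21495 genes. Sample, type and the percent of mitochondrial UMIs of each cell were used as deposited, with types renamed. Bipotential progenitors are called pre-supporting cells here, Supporting cells Sertoli cells and PGCs germ cells. Epithelial is called coelomic epithelium and Mesonephros mesonephric mesenchyme.

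UMIs were summed per cell type and sample and scaled to CPM. Log2 ratios used a prior count of 0.5, a minimum of 200 UMIs in the pair of samples, and centring on the median tested gene. The 1.3-fold limit is descriptive. Exact Poisson and binomial intervals have a level of 95%, and they and limits from 3 counts cover counting error only. A type needed 50 cells in both samples. The calculation was tested on simulated data. Computing used Python 3.11.15, numpy 2.4.6, scipy 1.17.1 and pandas 2.3.3, and TMM factors came from edgeR 4.0.16. The 3′ UTRs and positions came from GENCODE vM21 (mm10) and promoters and microRNAs from RefSeq. Runs are technical and were not used as replicates.

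The members, lists and named genes were chosen with earlier results of these data known. Named were the 5 highest and 5 lowest centred ratios in pre-supporting cells of each KO sample over the XY control, isoform pairs, complex II, 8 central or abundant subunits and the 5 members of widest range over types. Alternatives were other scalings, minimum counts of 50 and 500, a prior of 5, a fold of 1.5, cells with 3000 to 30000 UMIs, means over cells, single runs, merging with Sertoli cells and a stricter member list. Protein sequences were not used here.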

Additional observations from a re-analysis of the deposited data

Results flagged for a closer look

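These 4 members stood on opposite sides of the median gene in 2 cell types of the same comparison, with centred log2 ratios whose counting intervals left out 0 in both. The differences between types were not tested, the types were picked as extremes among those compared, and each sample is 1 pool. In KO E11.5 over the XY control, Ndufa9, an accessory subunit of complex I, was at 0.597 (0.23 to 0.95) in adrenosympathetic cells, from 101 and 182 UMIs, and at −0.39 (−0.65 to −0.14) in germ cells, from 157 and 714 UMIs. Cox7a2l was at 0.455 (0.38 to 0.53) in coelomic epithelium and at −0.436 (−0.82 to −0.06) in immune cells, the latter from 104 and 144 UMIs. In KO E11.75 over the XY control, Cox6b2 was at 0.567 (0.36 to 0.76) in germ cells, with 183 and 112 CPM, and at −0.791 (−1.18 to −0.43) in mesonephric tubules, with 22.2 and 34.9 CPM from 75 and 316 UMIs. In the XX over the XY control, Sdhc was at 0.495 (0.04 to 0.99) in immune cells, from 187 and 48 UMIs, and at −0.407 (−0.68 to −0.15) in germ cells, from 165 and 460 UMIs. The immune values rest on XY control cells with lower immune markers than those of the other samples, as given above with Cox6a2.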

How the results depend on the processing

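A median counted as moved outside the 95% order-statistic interval of the reported median over members, a number of members when it differed by over 1.5 times, and a sum or ratio outside its 95% counting interval. Of 134 medians and numbers recomputed in pre-supporting cells, 102 stayed, 32 moved and 0 reversed. Of 118 complex sums, type sums and nuclear to mitochondrial ratios, 50 stayed and 68 moved. The cause of these moves was not tested. With total counts and no centring the members' median was −0.0874 in KO E11.5, −0.471 in KO E11.75, 0.113 for XX cells and −0.37 in KO E11.75 over KO E11.5, with 3 members lower in the first, 1 higher in the third, and 2 higher and 36 lower in the last. Centred on genes with short 3′ UTRs, the medians of the last 3 were −0.255, 0.0894 and −0.16, with 17 lower and 1 higher, 0 higher, and 9 lower and 5 higher; these numbers were added after seeing the data. A minimum of 500 UMIs gave −0.55 in KO E11.75 and −0.525 in KO E11.75 over KO E11.5, and 3 members higher in the XX control. At 1.5-fold, 0 members were lower in KO E11.5 and 0 higher among XX cells. With the mean over cells the XX median was 0.252. With run 1 of the XY control alone, 0 members were lower in KO E11.5 and the KO E11.75 median was −0.574. With its run 2 alone, 2 were lower in KO E11.5, whose median was −0.0485, and the XX median was 0.139. With run 1 of KO E11.5 alone 4 members were lower in it and 1 was higher in KO E11.75 over it, and with run 2 alone 0 were lower. With Sertoli cells merged, 1 member was higher in KO E11.5 and 10 for XX cells. No shares of all genes are given beside these recomputed numbers of members. No paired analysis was possible because the groups share fewer than 2 replicate numbers. Counts set the precision within a sample, and a single pool per group leaves variation between embryos unknown.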
